A study of Mus musculus with 2 samples.

Results

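The histone cluster genes are named for the histone gene clusters of the mouse genome, and most are canonical histone genes. The set also holds testis histones, such as Hist1h1t, and pseudogenes, such as Hist3h2bb-ps. They were taken as every non-control row on both arrays whose gene name began with Hist1h, Hist2h, Hist3h or Hist4h. This gave 56 genes with 68 probes, of 36693 gene names with 56222 probes. By the type in the name, 6 were H1, 18 H2A, 14 H2B, 9 H3 and 9 H4 genes. By the cluster in the name, which need not be where the probe lies, 42 were Hist1, 10 Hist2, 3 Hist3 and 1 Hist4 genes.

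Canonical histones package newly made DNA, so their genes are known mainly for expression during S phase. H2A, H2B, H3 and H4 form the core of the nucleosome and H1 binds the linker DNA between nucleosomes. Most of their mRNAs end in a conserved stem-loop in place of a poly(A) tail. Stem-loop binding protein, the product of Slbp, binds that structure, and some cluster genes also give longer transcripts with a poly(A) tail.

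The groups were CD11b- and Ly6c-labelled splenic monocytes from ICR mice, an outbred stock, after 5/6 nephrectomy (5/6Nx, a surgical model of chronic kidney disease) or after sham surgery. Both were collected by flow cytometry 8 weeks after the operation. Each group had 1 Cy3 array, both lay on 1 slide and went through 1 scan, and neither the sex, the age nor the number of mice is given in the sources used here. There is therefore no replicate check for any difference below, no p-value was computed, and the number of arrays limits the precision. In bulk RNA of this kind, fewer cells of a type and less RNA per cell cannot be told apart.

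Values are log2 of the processed spot intensity minus the array's own 75th percentile, which was an intensity of 547.5 on the 5/6Nx array and 442.1 on the sham array. The scanner software called 67.0% of the 59305 non-control spots on the 5/6Nx array and 63.0% on the sham array well above background, and none saturated. A gene counts as measured when a probe was well above background on both arrays, and it is represented by its brightest measured probe. Differences are 5/6Nx minus sham on the log2 scale, and intensities are given before scaling. Across 283 probes printed at least 8 times, the spot-by-spot difference had a pooled SD of 0.0594 log2 units, which covers spot noise and not variation between mice.

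The labelling kit of this study primes from poly(A) tails, as background, and which share of histone RNA it labelled is not known here. The probes of these genes therefore matter for reading the values. Histone genes of 1 type are also near copies of each other, and 20 member probes shared a run of at least 20 bases with another member probe, in 36 pairs of which 33 lay within 1 type. In addition, 19 probes list more than 1 RefSeq transcript in the files.

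The H2A probes show this sharing most clearly. A run of 29 bases, in capitals below, was present in 6 member probes and in 1 probe of another gene on the array, H2afj. Coordinates follow the files (mouse, mm9).
Hist1h2ak: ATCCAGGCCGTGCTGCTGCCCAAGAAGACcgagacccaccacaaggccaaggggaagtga
Hist1h2ah: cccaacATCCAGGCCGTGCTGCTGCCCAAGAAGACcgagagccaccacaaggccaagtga
Hist1h2af: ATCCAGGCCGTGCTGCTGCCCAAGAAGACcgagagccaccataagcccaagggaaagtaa
Hist2h2aa2: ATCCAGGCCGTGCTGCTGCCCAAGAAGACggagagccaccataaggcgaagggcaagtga
Hist2h2ac: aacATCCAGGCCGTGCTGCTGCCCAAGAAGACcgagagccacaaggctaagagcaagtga
Hist1h2aa: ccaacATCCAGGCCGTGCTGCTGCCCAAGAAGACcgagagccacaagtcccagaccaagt
The Hist1h2ak probe lies at chr13:21845304-21845363 on the minus strand, the Hist1h2ah probe at chr13:22127035-22127094 on the minus strand and the Hist1h2af probe at chr13:23626113-23626172 on the plus strand. The Hist2h2aa2 probe lies at chr3:96043781-96043840 and the Hist2h2ac probe at chr3:96024378-96024437, both on the minus strand. The Hist1h2aa probe lies at chr13:24026659-24026718 on the plus strand. Each probe but that of Hist1h2aa ends on a stop codon in its open frame. A value from any of these probes may hold signal from several H2A genes, and the 6 genes cannot be told apart by them.

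Other probes reach the stem-loop itself. The letters searched were the histone stem-loop, GGNNNTTNTNANNNCC with its first 6 bases paired to its last 6 around a loop of 4, and its commonest first letters, GGCTCTTTT. On the probe strand the full stem-loop was in 6 member probes (8.82% of 68), against 0.0141% of all 56603 probes. The first 9 letters were in 9 member probes (13.2%), against 0.0459% of all probes. Both were in 4 member probes, so 11 held either. On the other strand neither was in any member probe, against 0.00177% and 0.0548% of all probes. The stem is in capitals below.
Hist1h2bf: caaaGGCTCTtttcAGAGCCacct
Hist2h2bb: aaaaGGCTCTtttcAGAGCCactt
Hist1h3a: caaaGGCTCTtttcAGAGCCaca
Hist1h3g: taaaGGCTCTtcttAGAGCCaccc
Hist1h3i: aaaaGGCTCTtttcAGAGCCccct
Hist1h4m: taaaGGCCCTtttcAGGGCCatcc
These stretches come from probes at chr13:23665629-23665688 on the minus strand (Hist1h2bf), chr3:96074056-96074115 on the plus strand (Hist2h2bb), chr13:23853756-23853815 on the minus strand (Hist1h3a), chr13:23627719-23627778 on the plus strand (Hist1h3g), chr13:21874784-21874843 on the minus strand (Hist1h3i) and chr13:21903960-21904019 on the plus strand (Hist1h4m). A match is a description of the probe and says nothing of what binds the RNA.

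Of the 56 genes, 47 were measured on both arrays. A further 1 cleared background on the 5/6Nx array alone and 2 on the sham array alone, and 6 cleared it on neither. Over all gene names, 6.72% cleared background on the 5/6Nx array alone and 1.87% on the sham array alone. Among the 47 measured genes, 40 (85.1%) had a difference below 0, against 55.5% of the 22182 gene names measured. Their median difference was -0.51, against -0.10 for all measured gene names. At 2-fold, 7 of the 47 histone genes fell, where 9.72% of all measured gene names did, and 1 rose, where 11.8% did. Another 33 genes lay between -1 and 0. Small differences in many gene names made up much of the downward shift, with a few large ones beside them. Where probes share letters, as in most of the measured H2A genes, the values are not independent.

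**Figure D1:**
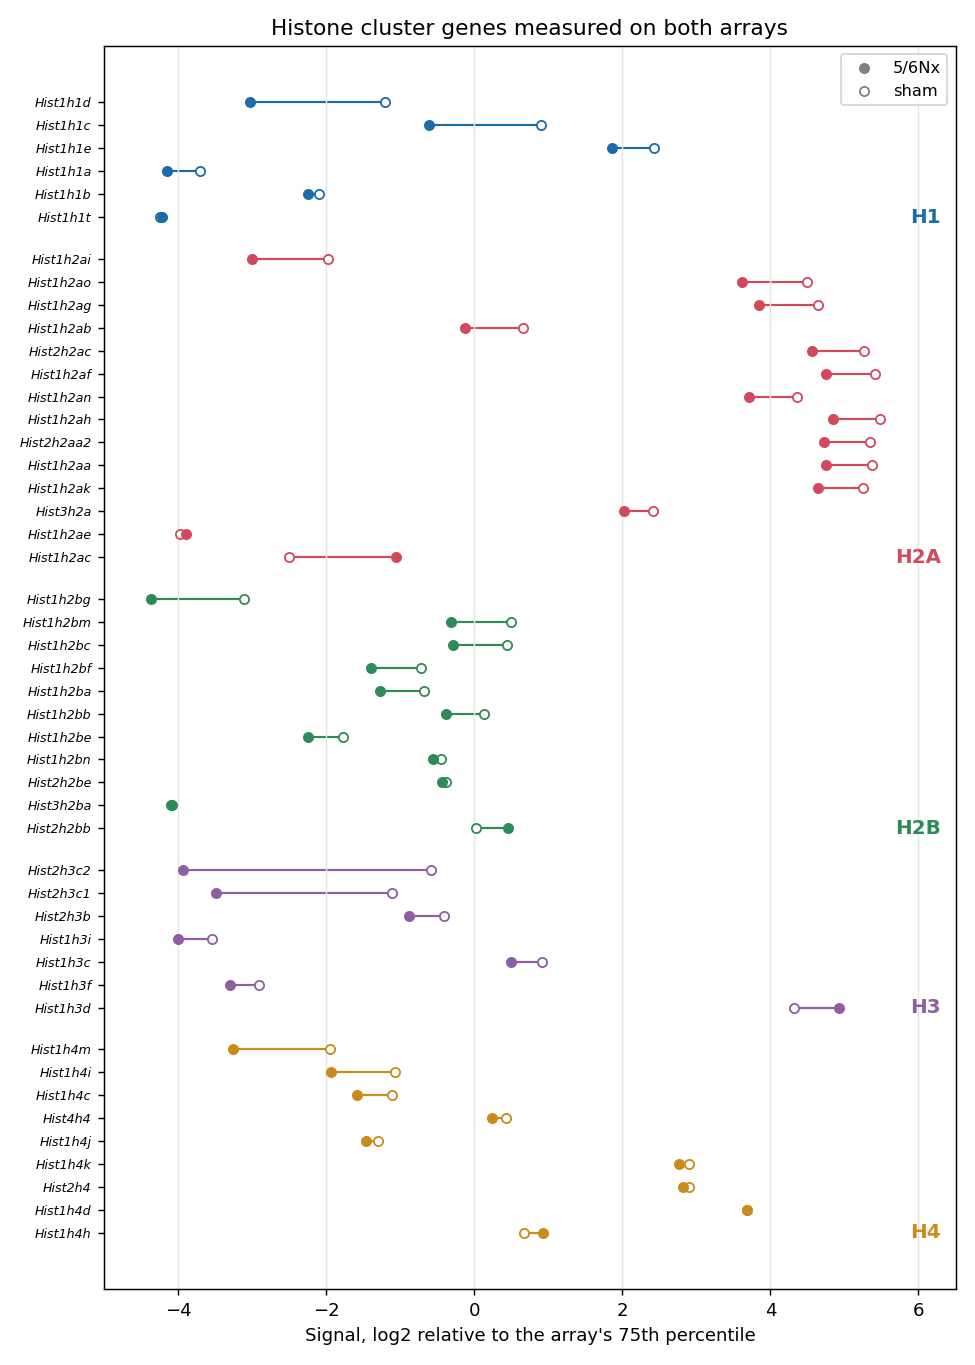
Signal of each of the 47 histone cluster genes measured on both arrays, in log2 units relative to the array's 75th percentile, with the 5/6Nx array as filled points and the sham array as open points, 1 array each, grouped by histone type. The filled point lies left of the open one in 40 rows, and Hist2h3c2 has the longest line, while Hist1h2ac runs the other way; values are to be compared within a row only.

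The members were compared with all gene names of like signal. Of 11 members with a mean signal of at least 3 log2 units over the 75th percentile, 10 had differences below 0, with a median of -0.62. All 3092 gene names at that signal had a median of -0.23, and 67.6% of them were below 0. Most of those 11 members are H2A genes whose probes share a run of at least 20 bases with another H2A probe. Their values are therefore not independent, and the count of 10 may hold 1 shared signal several times. Of 17 members between -3 and 0, 16 were below 0, with a median of -0.51, against a median of 0.02 and 49.2% below 0 for 7922 gene names. Of the 7 dimmest members, under -3, only 4 were below 0, near the 48.0% of 4672 gene names at that signal. Scaling both arrays to their medians moved the median of all gene names by -0.15, and scaling to the Agilent spike-in probes moved it by 0.36. Either scaling adds 1 amount to every difference. The histone median therefore stayed 0.42 below that of all gene names, while the number of members below 0 was 43 of 47 with median scaling, against 63.1% of all gene names, and 32 of 47 with spike-in scaling, against 33.1%.

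**Figure D2:**
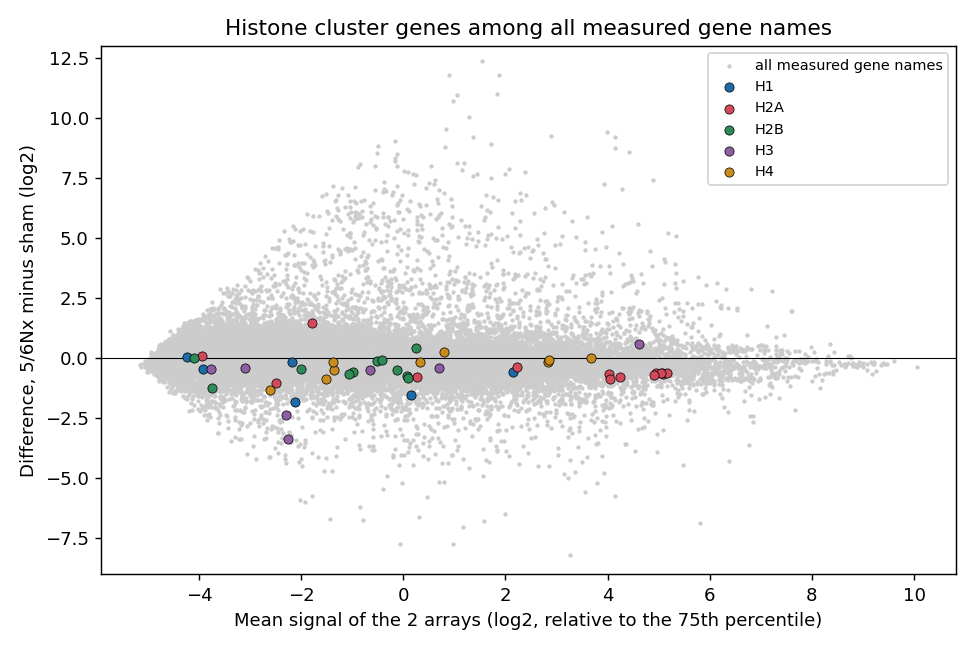
Difference, 5/6Nx minus sham in log2 units, against the mean signal of the 2 arrays, for 22182 measured gene names (grey) and the 47 measured histone cluster genes (coloured by type), 1 array per group. Most coloured points lie just below the zero line, though only 4 of the 7 dimmest, under -3, lie below it, and most stay inside the grey cloud.

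The H1 genes encode linker histones. All 6 were measured, 5 had differences below 0, and the median was -0.51. Hist1h1d read an intensity of 67.2 on the 5/6Nx array and 191 on the sham array, and fell by 1.81 on the log2 scale (3.51-fold), against -1.18 with normexp background correction. Its second probe was at background on both arrays. Hist1h1c read 357 on the 5/6Nx array and 826 on the sham array, and fell by 1.52 (2.86-fold). A second Hist1h1c probe, 628 bases away and holding the stem-loop letters, read 216 on the 5/6Nx array and 318 on the sham array, a difference of -0.86. The other H1 genes lay closer together. Hist1h1e read 1995 and 2387 on the 5/6Nx and sham arrays, a difference of -0.57. Hist1h1t, the testis linker histone, read 29.5 on the 5/6Nx array and 23.4 on the sham array, a difference of 0.03 that is smaller than the spot noise. Its sign was kept under only 4 of 8 alternatives.

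The H2A genes were mostly below 0 by similar amounts. Of 18 genes, 14 were measured, 12 of them below 0, with a median of -0.63. Hist1h2ah read 15799 on the 5/6Nx array and 19662 on the sham array, a difference of -0.62. The 6 genes whose probes share the run printed above had differences between -0.70 and -0.61, a range of less than 0.1, and H2afj, whose probe holds the same run, had -0.54. Since these probes share letters, the 6 values are not independent. Further H2A probes, among them those of Hist1h2ai, Hist1h2an and Hist1h2ao, also share a run of at least 20 bases with another H2A probe.

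A second set of H2A probes overlaps in position. The probe named Hist1h2an lies at chr13:21902669-21902728, that named Hist1h2ao at chr13:21902695-21902754 and that named Hist1h2ai at chr13:21902706-21902779, all on the plus strand. Hist1h2an read 7172 on the 5/6Nx array and 9057 on the sham array, a difference of -0.65. Hist1h2ao read 6709 and 9941 on the 5/6Nx and sham arrays, a difference of -0.88. Hist1h2ai read 68.2 on the 5/6Nx array and 112 on the sham array and fell by 1.03, a fall that is under 2-fold with spike-in scaling (-0.66) and with normexp (-0.73). This last probe also holds the stem-loop letters. The values of the 3 gene names thus rest on probes whose listed positions overlap. A second Hist1h2ai probe, at chr13:21808994-21809053, was at background on both arrays. The Hist1h2an probe lists 4 RefSeq transcripts and the Hist1h2ao probe 2, so each may hold signal from several H2A genes.

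Hist1h2ac went the other way. It read 262 on the 5/6Nx array and 77.7 on the sham array, and rose by 1.45 (2.73-fold), the single histone gene to rise by 2-fold. With normexp its difference was 0.91, under 2-fold. Its probe was designed on a cDNA clone or Ensembl transcript and not on RefSeq, and it lies at chr13:23773343-23773402 on the minus strand. Its neighbour Hist1h2bc, an H2B gene, read 447 on the 5/6Nx array and 600 on the sham array, a difference of -0.73. Hist1h2ae, with 37 and 28 on the 5/6Nx and sham arrays, had a difference of 0.08, and its head-to-head neighbour Hist1h2bg fell. Hist3h2a had probes of opposite sign, at -0.39 and 0.01.

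The H2B genes were measured in 11 of 14 cases, 9 below 0, with a median of -0.51. Hist1h2bg read 26.6 on the 5/6Nx array and 51.2 on the sham array and fell by 1.25 (2.38-fold), at a low signal on both arrays. Its difference was -0.89 with spike-in scaling and -0.57 with normexp. Hist2h2bb read 752 on the 5/6Nx array and 450 on the sham array, a difference of 0.43. Its second probe, which carries the stem-loop printed above and lies 8638 bases away, read 500 on the 5/6Nx array and 512 on the sham array, a difference of -0.34, so the 2 probes of this gene disagree in direction. Hist3h2ba read 32.2 and 25.8 on the 5/6Nx and sham arrays, a difference of 0.01. Hist1h2bq cleared background on the sham array alone, and its signal in 5/6Nx was at least 2.23-fold lower. Its measured values were 5.88 on the 5/6Nx array and 24.7 on the sham array. Hist3h2bb-ps was likewise above background in sham alone, and at least 1.38-fold lower in 5/6Nx. Each such fold sets the bright value against the higher of the dim value and the lowest intensity well above background on that array.

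The H3 genes held the largest single differences. Of 9 genes, 7 were measured, 6 below 0, with a median of -0.45. Hist2h3c2 read 35.7 on the 5/6Nx array and 295 on the sham array, and fell by 3.35 on the log2 scale (10.2-fold), against -2.24 with normexp. Its other probe, 151 bases away, read 28.6 and 234 on the 5/6Nx and sham arrays, a difference of -3.34, so both probes gave the same value within the spot noise. Hist2h3c1, another H3 gene of the Hist2 cluster, read 48.6 on the 5/6Nx array and 205 on the sham array, and fell by 2.39 (5.23-fold), against -1.61 with normexp. The first 30 bases of the 3 probes, printed because these are the largest differences, carry no capitals.
Hist2h3c2: agctgaaggctgagatctagcttacagctc
Hist2h3c2, other probe: ctacataatggttgctttcaaggaaggttt
Hist2h3c1: ctattcttctgtccagactctttcttgcct
The Hist2h3c2 probes lie at chr3:96042034-96042093 and chr3:96042245-96042304 on the minus strand, and the Hist2h3c1 probe at chr3:96052051-96052110 on the plus strand. All 3 were designed on cDNA clones or Ensembl transcripts. Hist2h3b, the third H3 gene of that cluster, read 296 on the 5/6Nx array and 333 on the sham array, a difference of -0.48. Its probe lists 3 RefSeq transcripts, so this value may hold signal from several genes.

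Among other H3 genes, Hist1h3d read 16589 on the 5/6Nx array and 8794 on the sham array, a difference of 0.61 in a probe listing 4 RefSeq transcripts. Hist1h3f read 55.6 and 59.0 on the 5/6Nx and sham arrays, a difference of -0.40. Hist1h3a cleared background on the 5/6Nx array alone, at least 1.17-fold higher there.

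The H4 genes lay nearest to all other genes. All 9 were measured, 8 below 0, with a median of -0.15, against -0.10 for all gene names, and the sign of this median turns to 0.21 with spike-in scaling. The probes of Hist1h4d, Hist1h4j and Hist1h4k each share a run of at least 20 bases with another H4 probe. The values of these genes, at -0.01, -0.15 and -0.14, are therefore not independent. Hist1h4m, whose probe holds a stem-loop, read 56.9 on the 5/6Nx array and 114 on the sham array and fell by 1.31 (2.48-fold), against -0.95 with spike-in scaling and -0.85 with normexp. Hist1h4h read 1043 and 705 on the 5/6Nx and sham arrays, a difference of 0.26. Hist1h4d was printed 10 times, with intensities of 6776 to 7344 and a median of 6994 on the 5/6Nx array, against 5453 to 5910 and a median of 5652 on the sham array. After scaling its difference was -0.01 ± 0.05 (SD over 10 spots of 1 array pair), so the difference was within the spot noise.

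**Figure D3:**
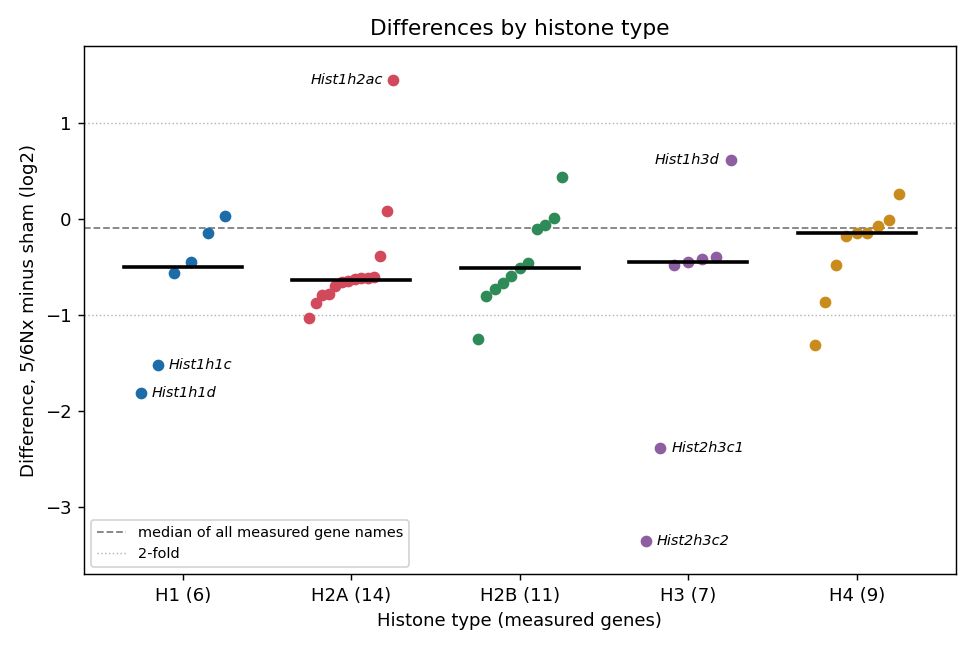
Difference, 5/6Nx minus sham in log2 units, of each measured histone cluster gene by type, with the number of genes in brackets, the type's median as a black bar and the median of all measured gene names as a dashed line. Several H2A points, among them the 6 that share the printed run, form a row near -0.6, with Hist1h2ac highest at 1.45, the H3 column reaches down to -3.35, and the H4 bar at -0.15 lies beside the dashed line.

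The kind of probe moved with the size of the difference, in classes chosen after the values were seen. The 9 measured probes designed on cDNA clones or Ensembl transcripts ranged from -3.35 to 1.45, with a median of -1.25, with 5 probes that fell by 2-fold, 2 of them for Hist2h3c2, and the 1 that rose. The 20 RefSeq probes without stem-loop letters that shared a run, or listed several transcripts, ranged from -0.88 to 0.61 with a median of -0.56, and none of these 20 reached 2-fold. The 9 RefSeq probes with stem-loop letters, some of which also share a run or list several transcripts, had a median of -0.67. Among them are Hist1h2ai, whose probe shares a run, and Hist1h4m, whose probe lists 2 transcripts, and both fell by 2-fold. Of the rest, 16 other RefSeq probes had a median of -0.28. What part the probe's design had in the result was not tested.

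Genes that make, process or carry histones were set beside these values. Of 12 replacement histones, most of which are deposited outside S phase and have poly(A) tails, 11 were measured. Of these, 8 were below 0, with a median of -0.30, which turns to 0.06 with spike-in scaling. H2afj is on this list, and since its probe holds the H2A run printed above, its -0.54 may hold signal from cluster H2A genes. H1fx, a replacement linker histone, fell by 1.18, at 1110 on the 5/6Nx array and 2026 on the sham array. H3f3b, an H3.3 gene, read 54501 on the 5/6Nx array and 23470 on the sham array, a difference of 0.91. H2afz, the H2A.Z gene, read 18115 and 27124 on the 5/6Nx and sham arrays, a difference of -0.89, and H2afv had -0.74. H1f0 was at background on both arrays.

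All 16 genes of histone gene transcription and mRNA end processing were measured, with a median of -0.05, which turns to 0.31 with spike-in scaling. Slbp read 1128 on the 5/6Nx array and 903 on the sham array, a difference of 0.01. Sympk, part of the cleavage complex, fell by at least 2-fold, at 1046 on the 5/6Nx array and 1804 on the sham array. Zfp473, a factor of histone pre-mRNA cleavage, rose by 1.02. It read 52 and 20.6 on the 5/6Nx and sham arrays. Spike-in scaling takes both Sympk and H1fx under 2-fold, and median scaling takes Zfp473 under it. Lsm11, part of the U7 particle, had -0.85. Among 22 histone chaperones, 3 rose, a share near the 11.8% of all measured gene names, and none fell, where 9.72% did. The chaperone median was -0.17, which turns to 0.20 with spike-in scaling. Daxx, a chaperone of H3.3, rose by 3.15, with 35525 on the 5/6Nx array and 3225 on the sham array. Hat1, a histone acetyltransferase, rose by 1.23, and Ipo4, a histone importer, had -0.96. Dnajc9, a histone chaperone, rose by 1.05, but its other measured probe had 0.46 and median scaling takes it under 2-fold.

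The S phase and mitosis genes had medians above 0 where the histone median was below 0. By comparison, 11.8% of all measured gene names rose by 2-fold and 9.72% fell, and 6.72% of all gene names cleared background on the 5/6Nx array alone. Of 27 S phase genes, 26 were measured, 6 rose, none fell, and the median was 0.20. A difference below 0 was seen in 10 of the 26. The S phase median was 0.05 with median scaling, 0.13 with normexp and 0.57 with spike-in scaling. Ccne1, cyclin E1, rose by 2.25, at 537 on the 5/6Nx array and 91.1 on the sham array. Rrm2, a ribonucleotide reductase subunit, rose by 1.77, Tk1, thymidine kinase, by 1.69 and Mcm5, a subunit of the replicative helicase, by 1.52. The 3 measured Tk1 probes ranged from 0.82 to 1.69. Pcna, the replication clamp, read 6130 on the 5/6Nx array and 7540 on the sham array, a difference of -0.61. Of 15 genes of G2 and M phase, 10 were measured, 3 rose and none fell, with a median of 0.58, and 5 more cleared background on the 5/6Nx array alone. Mki67, the Ki-67 gene, rose by 3.55, at 5822 and 401 on the 5/6Nx and sham arrays, Ccnb1, cyclin B1, by 1.28, and Top2a, a topoisomerase, by 1.21. These lists were set beside the histone genes as values, and no difference between lists was tested.

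**Figure D4:**
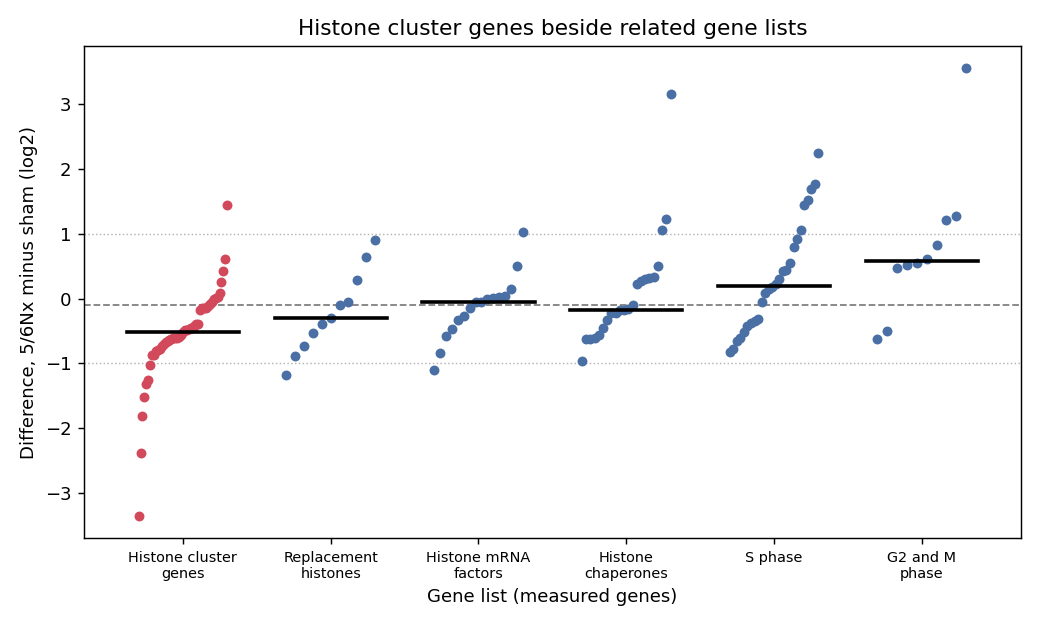
Difference, 5/6Nx minus sham in log2 units, of every measured gene of the histone clusters and of 5 related lists, with the list's median as a black bar and the median of all measured gene names as a dashed line. The histone bar lies at -0.51 and the bars of the S phase and G2 and M phase lists at 0.20 and 0.58, above the dashed line.

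The testis histone list held 6 genes, of which 3 belong to the clusters, 4 were measured and the median was -0.36. That median was 0.01 with spike-in scaling and -0.04 with no filter on dim probes. Hist1h2aa and Hist1h2ba, textbook testis genes, gave -0.61 and -0.60, and the Hist1h2aa probe holds the shared H2A run printed above. Of the 6, Hils1 and H2afb1 were at background on both arrays.

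Markers of other cell types differed between the same 2 arrays. Their counts stand beside 11.8% of all measured gene names that rose by 2-fold and 9.72% that fell. Background was cleared on the 5/6Nx array alone by 6.72% of all gene names and on the sham array alone by 1.87%. Of 9 T cell markers on the array, 8 were measured and 7 rose, with a summed intensity of 32943 on the 5/6Nx array and 1353 on the sham array. Cd3g rose by 6.31 and Cd3d by 6.19, and Cd8a cleared background on the 5/6Nx array alone. Of 8 NK cell markers, 4 were measured and all 4 rose, with sums of 40092 on the 5/6Nx array and 224 on the sham array, and the other 4 cleared background on the 5/6Nx array alone. Gzma rose by 9.56 and Il2rb by 7.67. Of 8 B cell markers, 5 were measured and 1 rose, with sums of 2196 and 793 on the 5/6Nx and sham arrays, and 3 more cleared background on the 5/6Nx array alone. Of 9 neutrophil markers, 4 rose and 1 fell, with sums of 15641 and 5225 on the 5/6Nx and sham arrays, and Ngp and Ltf were at background on both. Lcn2 (9760 in 5/6Nx, 50 in sham) carried most of the difference between these sums. S100a8 had -0.55, and Elane, the marker that fell, had -1.66. Of 6 plasma cell markers, 2 rose and 1 fell, with sums of 57085 and 17450 on the 5/6Nx and sham arrays. Irf4 rose by 4.41, while Sdc1, the marker that fell, had -2.10, at 272 on the 5/6Nx array and 941 on the sham array. Jchain (29381 on the 5/6Nx array and 8 on the sham array) and Tnfrsf17 cleared background on the 5/6Nx array alone. Jchain carried most of the difference between the plasma cell sums. Of 8 erythroid markers, 1 rose, with sums of 2705 and 1307 on the 5/6Nx and sham arrays, and Hbb-b1 and Alas2 were at background on both. The marker that rose, Hba-a1, read 1790 on the 5/6Nx array and 223 on the sham array, while Ermap and Epor had -0.67 and -0.79 and Klf1 cleared background on the sham array alone. All 9 monocyte markers were measured, with 3 that rose and 1 that fell, and sums of 871246 on the 5/6Nx array and 563856 on the sham array. Ly6c1 (210831 in 5/6Nx, 43112 in sham) and Ly6c2 (213343 in 5/6Nx, 43666 in sham), named for the sort antigen, carry the higher sum, while 5 of the 9 were below 0 and the median was -0.26. Cx3cr1 fell by 4.24 and Fcgr1 rose by 2.63. The part of these cell types in the histone differences was not tested.

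**Figure D5:**
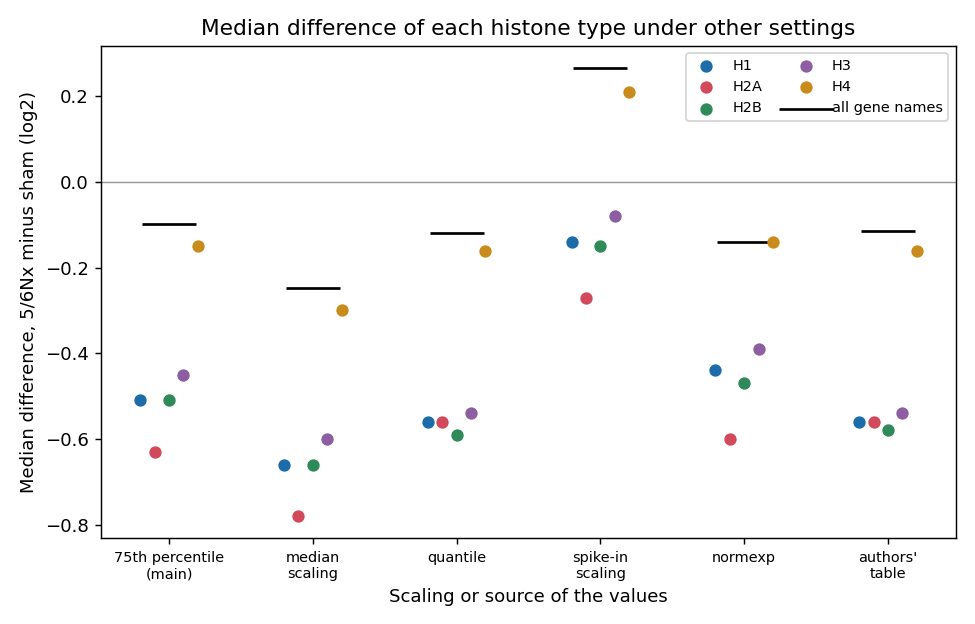
Median difference, 5/6Nx minus sham in log2 units, of each histone type (points) and of all measured gene names (black bars) under the main scaling, 3 other scalings, another background correction and the authors' deposited values. The H1, H2A, H2B and H3 points lie below the bar in every column, and the H4 point lies within 0.1 of it.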

How the data were processed

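Total RNA from sorted splenic monocytes was amplified, labelled with Cy3 and hybridised to 1 Agilent 1-colour array per group, per the labels' protocols. The deposited scanner output gives linear intensity values, background-subtracted and detrended within each array, per the file headers. The submitters' processing notes name Agilent Feature Extraction 9.5.1.1 and the file headers 10.7.1.1. The authors' deposited value table also holds linear intensity values, for 52145 probes with medians of 48.2 (5/6Nx) and 47.5 (sham). In log2 it correlated with the scanner values at 0.9998 (5/6Nx) and 0.9996 (sham) across probes. How it was normalized was not stated in those sources, its values are not centred, and it served as an alternative.

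Spots were averaged per probe and log2 values scaled to the 75th percentile of non-control spots, in Python 3.11.15 with pandas 2.3.3; none of the 77 member spots carried an outlier flag. The lowest intensities well above background were 13.7 (5/6Nx) and 12.8 (sham), and these set the bounds. The code was tested on simulated data. All 56 names matched a RefSeq table of GRCm38.p6, used for names and gene order only. Exon and UTR annotation on mm9 was not used here.

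Named members were those at least 2-fold apart, the brightest and the least different of each type, those with a bound of at least 2-fold, and those whose probes disagree in sign; in related lists, the largest differences. Hist1h2an, Hist1h2ao, Hist1h4h, Hist2h3b, Hist1h2bc, Hist1h3a, Hist3h2bb-ps, H2afj, Slbp, Pcna, Cd8a, Jchain, Tnfrsf17, S100a8, Elane, Ermap, Klf1, Ly6c1 and Ly6c2 were named outside this rule, after their values were seen. Members and lists were chosen with earlier results of these data known. Alternatives were median, quantile and spike-in scaling, normexp (limma 3.58.1, offset 50), other filters, probe rules, the authors' table and 1.5-fold.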

Additional observations from a re-analysis of the deposited data

How the results depend on the processing

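Of the medians of all members and of the 5 types, only that of H4 changed sign, with spike-in scaling. The number of histone genes at least 2-fold higher was 1, and became 0 with normexp, 2 with no filter on dim probes and 2 at 1.5-fold, where 6.47%, 14.4% and 21.3% of all gene names were higher. The number at least 2-fold lower was 7, and became 4 with spike-in scaling, 4 with normexp and 22 at 1.5-fold, where 5.14%, 6.52% and 22.1% of all gene names were lower. Hist1h1c, Hist1h1d, Hist2h3c1 and Hist2h3c2 were at least 2-fold lower under all 8 alternatives that give single-gene values, and Hist1h2ai, Hist1h2bg and Hist1h4m under 6 of 8. Hist1h2ac was at least 2-fold higher under 7 of 8, with 0.91 under normexp. Hist2h2bb had -0.33 under normexp, where its other probe stood for the gene. With median scaling the median was -0.66 for all members, -0.66 for H1, -0.78 for H2A, -0.66 for H2B, -0.60 for H3 and -0.30 for H4. With spike-in scaling it was -0.15 for all members, -0.14 for H1, -0.27 for H2A, -0.15 for H2B, -0.08 for H3 and 0.21 for H4. With quantile normalization it was -0.56 for H2A, -0.59 for H2B and -0.54 for H3, and in the authors' table -0.56 for H2A, -0.58 for H2B and -0.54 for H3. H1 moved to -0.44 with normexp and -0.57 over probes, and H2B to -0.60 with probes well above background on either array. Median and spike-in scaling add 1 amount to every difference; the cause of the other moves was not tested. Counts over all gene names shifted too: with spike-in scaling 19.9% were at least 2-fold higher, against 11.8%. No paired analysis was possible because each group has 1 array, and leaving out an array was not possible for the same reason. Members near the lowest intensity well above background, such as Hist1h2bg, are limited by signal over background.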
